A study of Mus musculus with 9 samples.

Results

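The windows described here are 1 kb windows of low to moderate CpG number. They lie in the autosomal 1 Mb blocks of the mouse with the fewest listed CpG positions. Full 1 Mb blocks with at least 1000 reads in each of the 2 tables were ranked by the number of CpG positions listed in either table, and the lowest 10% were taken. This gave 240 of 2392 ranked blocks. Their windows with 1 to 19 listed positions numbered 209882, of 2317179 autosomal windows with any listed position. They are called windows of CpG-poor blocks below, and the 2017013 other autosomal windows of 1 to 19 positions are called the other windows. A listed position needs a read, so blocks with many windows without coverage also rank low. In 44 of the 240 blocks, fewer than 900 of the 1000 windows held a listed position. No methylation value entered the choice, so the levels below are measurements that the rule did not use.

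The study sequenced bisulfite-converted genomic DNA of primordial germ cells, the embryonic precursors of eggs and sperm. Cells came from female C57BL/6 embryos at embryonic day 13.5, either wild type (WT) or Tet1-null, and the comparison concerns DNA methylation in germ cells without Tet1. The WT group had 4 libraries of 1575 to 5251 cells, and the Tet1-null group had 5 libraries of 1400 to 4700 cells. The values were 1 pooled table per genotype, so each difference between genotypes sets 1 pool against the other, with no replicate error. Conversion was with the Sigma kit in 2 WT and 2 Tet1-null libraries and with the Zymo kit in the other 2 and 3, and WT libraries came from 3 sequencing runs and Tet1-null libraries from 2 of them. Kit, run and genotype cannot be told apart within pooled tables. Whether libraries of 1 genotype came from separate embryos is not said in the labels, nor is the Tet1 allele described. Tet1-null libraries 1 and 2 are both labelled with 3266 cells, and 2 WT titles carry a second number without explanation, so the number of separate samples is uncertain.

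Cytosine methylation in mammals sits mainly on CpG dinucleotides, which are depleted from most of the genome because methylated cytosine mutates readily to thymine. Large CpG-poor blocks are typically AT-rich and hold few genes. Primordial germ cells erase most of their methylation before this embryonic stage, although some transposable elements, such as intracisternal A particles, are known to keep part of theirs. TET1 oxidises 5-methylcytosine to 5-hydroxymethylcytosine, and bisulfite sequencing reads both as methylated.

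The 240 blocks held 876 to 4146 listed positions each, with a median of 3839, against a median of 7622.5 in the other ranked blocks. At the edge of the rule, the last 3 blocks taken had 4146 positions each, and the first 3 left out had 4151, 4154 and 4155. The blocks were spread unevenly. Chromosome 1 held 34 of them, chromosomes 3, 4 and 14 held 24, 22 and 20, chromosomes 9 and 16 held 3 each, and chromosome 19 held none. They formed 128 runs of adjacent blocks, of which 71 were single blocks and the longest spanned 10 blocks at chr1:109000001-119000000 (build mm9, as in the tables). Positions here are counted from 1 and take the tables' starts to be counted from 0, which was not checked against a genome, so single-base positions may be off by 1. Gene and repeat annotation of that build was not used here, so the windows are given by position only.

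The median window of the CpG-poor blocks had 3 listed positions, against 6 among the other windows. Of the windows in CpG-poor blocks, 95.7% had 1 to 9 positions and only 8939 (4.26%) had 10 to 19, against 26.5% of the other windows. Windows with 20 or more positions are outside the rule, and there were 1462 of them in these blocks. Mean depth per listed site was similar in both sets of windows. Listed sites had a mean of 2.26 reads (WT) and 2.87 (Tet1-null) in the CpG-poor blocks, and 2.25 and 2.90 elsewhere. In all, the windows of CpG-poor blocks carried 1386691 WT and 2102441 Tet1-null reads over CpG sites. Positions seen in both pools made up 58.99% of positions there and 62.9% elsewhere. Windows of CpG-poor blocks had fewer reads per position in both pools at 1 to 10 and at 12 to 19 positions. The exceptions were 16 and 18, which include very deep windows described below. At 11 positions only the WT pool was lower. With 1 position the windows of CpG-poor blocks had 1.62 WT and 2.38 Tet1-null reads per position, against 1.72 and 2.55 elsewhere. With 16 positions they had 3.11 WT and 5.21 Tet1-null reads per position, against 1.60 and 2.47 elsewhere. With 19 positions they had 1.26 WT and 2.24 Tet1-null reads per position, against 1.55 and 2.45 elsewhere, and 48.1% against 59.6% of their positions were seen in both pools.

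The windows of CpG-poor blocks were lowly methylated as a set, but above the other windows. Their level, the share of reads over CpG sites that were methylated, was 4.55% (95% Wilson interval 4.52 to 4.59) for WT and 5.03% (5.005 to 5.06) for Tet1-null. The other windows stood at 3.09% and 3.75%. Intervals here and below cover counting error only, since neighbouring sites share reads and amplified reads carried no molecular identifiers. On mitochondrial DNA, which is largely unmethylated, 1.66% of WT reads (551 of 33263) and 1.29% of Tet1-null reads (811 of 63081) were counted as methylated. This background was lower in the Tet1-null pool, with a difference of -0.371 points (Newcombe interval -0.537 to -0.211), the opposite direction to the windows. Subtracting it from each pool is given below beside the difference of the pools.

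The excess over other windows depended on the CpG number of the window. In windows with 1 position, the WT level was 2.98% in CpG-poor blocks and 2.76% elsewhere. With 5 positions it was 3.29% against 2.84%, with 10 positions 6.92% against 3.00%, and with 15 positions 16.4% against 3.50%. With 19 positions it reached 20.5% against 4.29%, a 4.77-fold difference. Levels thus climbed steeply with CpG number inside the CpG-poor blocks and only slightly in the other windows as a whole, which come mostly from CpG-richer blocks.

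The Tet1-null pool had the same form. Its levels in CpG-poor blocks were 2.96% with 1 position, 7.15% with 10, 17.2% with 15 and 23.9% with 19, against 3.01%, 3.67%, 4.46% and 5.36% elsewhere. Windows of CpG-poor blocks were above windows of equal number at 19 of 19 numbers (WT) and at 18 of 19 (Tet1-null), and the counting interval of the difference lay above 0 at 18 and 17 of them. The exception in direction was 1 position in the Tet1-null pool.

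**Figure D1:**
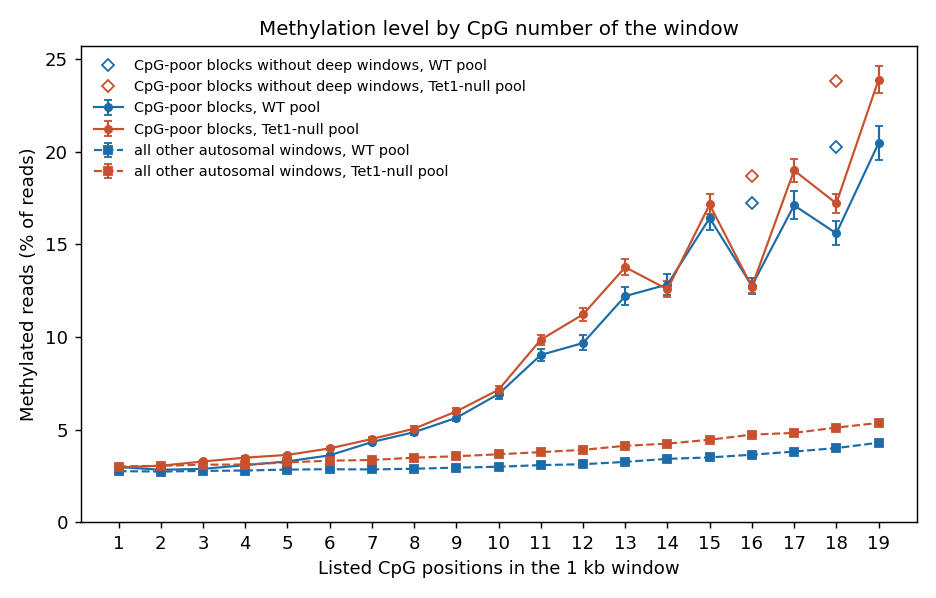
Methylation level (% of reads methylated) against the number of listed CpG positions in a 1 kb window, for windows of CpG-poor blocks (circles, solid lines) and all other autosomal windows (squares, dashed lines) in each pool. Bars are 95% Wilson counting intervals, and open diamonds leave out windows deeper than 20 times the median at the numbers where that matters most, 16 and 18. Levels in CpG-poor blocks climb from 2.98% to 20.5% (WT) and from 2.96% to 23.9% (Tet1-null), while the others reach at most 4.29% and 5.36%.

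Averaged at equal CpG number, with the reads of the CpG-poor windows as weights, the WT level was 4.61% in CpG-poor blocks and 2.89% in the other windows. The difference was 1.71 points (1.68 to 1.75), or 1.59-fold. In the Tet1-null pool it was 4.996% against 3.36%, a difference of 1.64 points (1.61 to 1.67), or 1.49-fold. Windows of 1 to 3 positions contributed little, with differences of 0.120 points (WT) and 0.0870 points (Tet1-null). Windows of 7 to 9 positions differed by 1.91 and 1.56 points.

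Most of the difference lay in the locally CpG-richer windows. Windows of 10 to 19 positions were at 11.5% (WT) and 12.4% (Tet1-null), against 3.37% and 4.22% in other windows. At equal number the WT level was 8.17 points higher (8.02 to 8.32) and the Tet1-null level 8.18 points higher (8.06 to 8.30), which is 3.43-fold and 2.94-fold. They gave 13.3% of WT reads in the CpG-poor windows but 33.6% of the methylated reads, and 14.2% and 35.0% in the Tet1-null pool. In the other windows the same class gave 46.6% of WT reads and 50.8% of the methylated reads. The climb did not end at the upper limit of the rule. The 1379 windows of 20 to 39 positions in the same blocks stood at 26.0% (WT) and 26.7% (Tet1-null), against 5.31% and 6.48% in the other blocks.

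A group of very deep windows lowered some of these levels. A run of 6 adjacent windows at chr2:98502001-98508000, with 10 to 18 listed positions, had 37.0 to 332 times the median depth per position, at levels of 7.08% to 12.4% in the WT pool. A window of 4 positions at chr14:95964001-95965000 was 21.8 times as deep as the median. Without windows deeper than 20 times the median, windows of 16 positions were at 17.2% (WT) and 18.7% (Tet1-null) in place of 12.8% and 12.7%, and windows of 18 positions at 20.3% and 23.8% in place of 15.6% and 17.2%. The dips at these numbers were absent without them. The difference over 10 to 19 positions was then 8.50 points (WT) and 8.81 points (Tet1-null).

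The CpG-poor decile was one end of a gradient. When all ranked blocks were divided into deciles by listed positions, windows of 10 to 19 positions in the WT pool were at 11.5% in the first decile, 9.95% in the second, 7.12% in the third and 5.28% in the fourth. It was 3.90% in the fifth decile and 2.66% in the last. Windows of 15 to 19 positions were at 15.5% in the first decile and 15.9% in the second in the WT pool, and at 16.6% and 17.05% in the Tet1-null pool. The climb with CpG number was thus not confined to the CpG-poor blocks, and in the second decile windows of 19 positions reached 18.2% and 19.6%. Without the deep windows, windows of 15 to 19 positions in the first decile were at 17.95% and 20.1%, above the second in both pools. Windows of 1 to 3 positions differed little, with 2.88% in the first decile and 2.69% in the last in the WT pool.

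**Figure D2:**
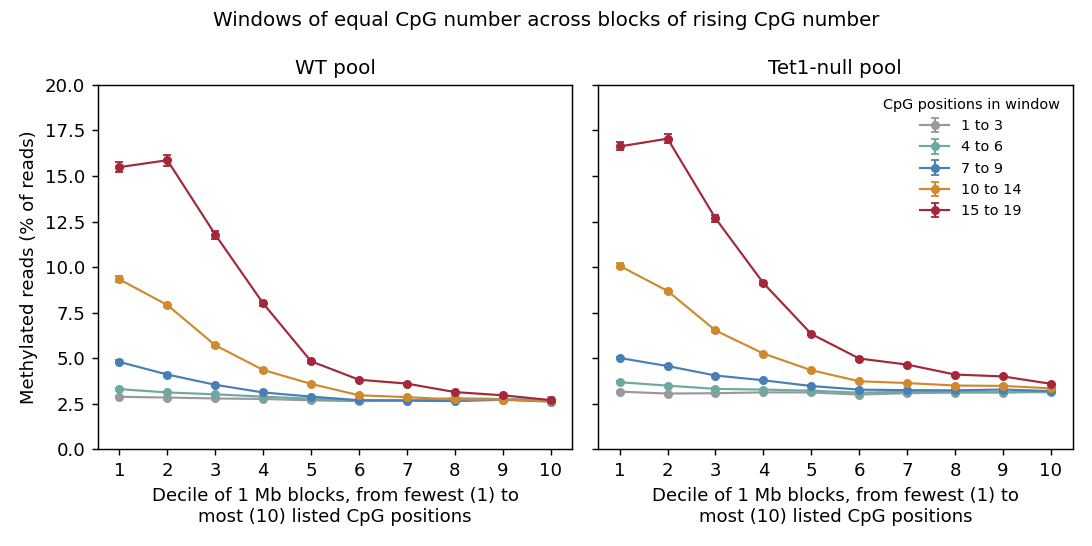
Methylation level (% of reads methylated) of windows grouped by CpG number, across deciles of 1 Mb blocks ordered from the fewest to the most listed CpG positions, WT pool left and Tet1-null pool right. Bars are 95% Wilson counting intervals. The first decile holds the CpG-poor blocks, and the lines of 10 to 14 and 15 to 19 positions come down from 9.32% and 15.5% in the WT pool to 2.63% and 2.69% in the last decile, where all classes lie close together.

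The immediate surroundings of a window were measured as the listed positions in the 5 kb on either side. Windows of CpG-poor blocks had a median of 37 such flanking positions, against 70 for the other windows. Among windows of 10 to 19 positions, those with few flanking positions were highly methylated in both sets. With 10 to 19 flanking positions the WT level was 14.02% in CpG-poor blocks and 18.6% elsewhere, and the Tet1-null level was 20.2% in both. With 20 to 29 flanking positions it was 9.09% against 10.4% (WT) and 11.6% against 12.8% (Tet1-null). In these classes the WT level was lower in CpG-poor blocks, and the Tet1-null level was close to or below that elsewhere. The first of them held 122 windows of CpG-poor blocks. With 0 to 9 flanking positions there were only 16 windows in CpG-poor blocks and 23 elsewhere, at 11.4% against 20.5% (WT) and 21.6% against 13.7% (Tet1-null).

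The sets parted where the surroundings were richer. With 40 to 59 flanking positions the WT level was 10.7% in CpG-poor blocks and 5.53% elsewhere, with 60 to 79 it was 13.2% against 3.84%, and with 80 or more 14.97% against 2.93%. The Tet1-null levels at 80 or more were 14.8% and 3.73%. Without the deep windows the levels of CpG-poor blocks at 80 or more were 16.9% (WT) and 17.3% (Tet1-null). Matching windows on both their own number and the flanking number left a WT difference of 5.67 points (5.52 to 5.82) and a Tet1-null difference of 5.24 points (5.12 to 5.37) for 10 to 19 positions. Over all windows of 1 to 19 positions it left 1.23 and 1.10 points.

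**Figure D3:**
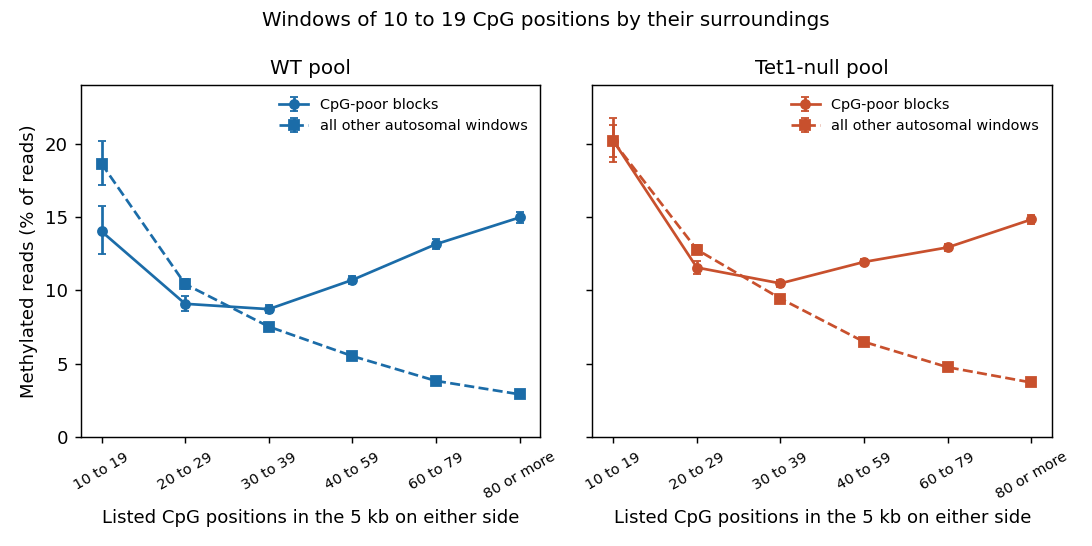
Methylation level (% of reads methylated) of windows of 10 to 19 positions against the number of listed positions in the 5 kb on either side, for CpG-poor blocks (circles) and all other autosomal windows (squares), WT pool left and Tet1-null pool right. Bars are 95% Wilson counting intervals. From 10 to 19 flanking positions on, the sparsest class drawn, the other windows come down to 2.93% and 3.73%, while windows of CpG-poor blocks go up again to 14.97% and 14.8% at the richest surroundings.

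Windows with 10 or more positions lay mostly alone in CpG-poor blocks. Of the windows of 10 to 19 positions, 66.6% had no adjacent window of 10 or more, against 28.96% elsewhere. These lone windows were at 9.61% (WT) and 11.2% (Tet1-null), those with 1 such neighbour at 12.9% and 13.6%, and those with 2 at 16.7% and 15.2%. Without the deep windows the last group was at 20.5% and 19.5%. In the other windows the order was the reverse, with WT levels of 3.77%, 3.35% and 3.02%.

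Sparse windows of CpG-poor blocks were also higher beside locally CpG-rich ones. Windows of 1 to 9 positions that lay 1 kb from a window of 10 or more were 3.04 points (WT) and 3.07 points (Tet1-null) above other windows of equal number at the same distance. The difference was 1.31 and 1.10 points at 2 kb. It was 0.294 and 0.190 points at 21 kb or more. The remotest of these windows, which made up 26.4% of the sparse windows in CpG-poor blocks and 4.96% elsewhere, were thus the closest to the rest of the genome.

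Within windows of 10 to 19 positions, sites close to another listed CpG had the highest levels. Sites of CpG-poor blocks at most 10 bp from the nearest listed site were at 19.2% (WT) and 22.0% (Tet1-null), against 4.80% and 6.39% elsewhere. Sites 11 to 30 bp away were at 10.4% and 10.7%, and sites 31 to 100 bp away at 6.26% and 6.10%, against 2.64% and 3.12% elsewhere for the latter. The sets differed at each of these spacings. Matched on number and spacing, windows of CpG-poor blocks were 8.06 points (WT) and 7.99 points (Tet1-null) higher.

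Read depth moved with the level. In windows of 10 to 19 positions of CpG-poor blocks, sites with 1 read were at 13.5% (WT) and 16.2% (Tet1-null), and sites with 5 or more reads at 10.3% and 10.9%. The other windows had the same direction, from 3.93% to 3.16% and from 5.19% to 3.95%. By window, those up to the median depth were at 12.8% and 14.5%, and those at 1 to 2 times the median at 10.4% and 11.3%. The order was reversed among deeper windows, since those at 2 to 20 times the median were at 11.3% and 12.1%, and the other windows at that depth at 6.83% and 7.60%. In each of these 3 depth classes, windows of CpG-poor blocks were above the other windows. When each site was thinned to the same number of reads in both pools, the excess of windows of 10 to 19 positions over others of equal number was 7.68 points (WT) and 7.36 points (Tet1-null). Thinning keeps only sites listed in both pools, which gave 7.77 and 7.29 points unthinned. It evens depth between the pools and not between the sets, so it cannot address their difference in depth.

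The Tet1-null pool was slightly above the WT pool in windows of CpG-poor blocks. The difference was 0.483 points (Newcombe interval 0.438 to 0.529), against 0.656 points in the other windows. It was 0.325 points in windows of 1 to 9 positions and 0.969 points (0.781 to 1.16) in windows of 10 to 19. The Tet1-null level was higher at 16 of 19 CpG numbers, with the interval above 0 at 13, whereas in other windows it was higher at 19 of 19. At equal CpG number the excess of the Tet1-null pool was 0.390 points in CpG-poor blocks and 0.464 points elsewhere, a difference of -0.0743 points (-0.121 to -0.0274). Without the deep windows that difference was -0.0395 points (-0.0864 to 0.00745), and without the blocks of few covered windows described below it was -0.0125 points (-0.0616 to 0.0366). The excess of 0.483 points was 0.290 points after reads were thinned to equal depth per site and 0.854 points with the mitochondrial level subtracted from each pool.

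For 10 to 19 positions the same contrast was 0.0116 points (-0.175 to 0.199) with all windows and 0.312 points (0.110 to 0.514) without the deep ones. It was -0.426 points (-0.622 to -0.230) when windows were also matched on flanking positions. Whether the excess of the Tet1-null pool was larger or smaller in CpG-poor blocks thus depended on the windows compared. In windows of 7 to 9 positions the contrast was -0.348 points (-0.457 to -0.239), a smaller excess in CpG-poor blocks. The difference between the pools was far below the difference between CpG-poor blocks and the rest in windows of 10 to 19 positions.

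The gap between sets was seen on each chromosome that held CpG-poor blocks. At equal CpG number, windows of CpG-poor blocks were above other windows of the same autosome on 18 of 18 autosomes in both pools. The WT difference over 1 to 19 positions ranged from 0.973 points on chromosome 15 to 3.04 points on chromosome 9 (SD 0.597 over autosomes). For 10 to 19 positions it ranged from 5.04 points on chromosome 15 to 13.04 points on chromosome 9, and in the Tet1-null pool from 5.29 points on chromosome 2 to 12.6 points on chromosome 11. Without the deep windows chromosome 2 was at 7.38 points (WT) and 7.39 points (Tet1-null). The Tet1-null pool was above the WT pool in windows of CpG-poor blocks on 17 of 18 autosomes. At equal CpG number it was also higher in the other windows of each of these autosomes.

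Single CpG-poor blocks differed from each other by far more than counting error. Their WT levels ran from 2.40% to 12.1% with a median of 4.17% and an SD of 1.74 points over the 240 blocks, where counting alone would give 0.298 points. Their Tet1-null levels ran from 2.77% to 11.5% with a median of 4.68% and an SD of 1.49 points. The other ranked blocks had medians of 2.91% and 3.59%. Their SDs were 1.17 points (WT) and 1.05 points (Tet1-null), where counting alone would give 0.177 and 0.156 points. Spread beyond counting error was thus not particular to the CpG-poor blocks. The counting values take the counted reads as independent, and reads shared between sites would raise them. The block at chr2:98000001-99000000, which holds the run of deep windows, was at 8.58% (WT) with them and 4.41% without. Levels of the 240 blocks in the 2 pools went together (Pearson r = 0.920, Spearman rho = 0.869), and these pairs share their sequence and CpG number.

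The 3 highest blocks were chr12:23000001-24000000 at 11.7% (WT) and 11.4% (Tet1-null), chr7:33000001-34000000 at 12.1% and 11.1%, and chr4:60000001-61000000 at 10.96% and 11.5%. Each had few windows with any listed position, 732, 475 and 681 of the 1000 in a block. The 3 lowest were chr6:45000001-46000000 at 2.40% and 2.77%, chr10:64000001-65000000 at 2.50% and 3.23%, and chr14:96000001-97000000 at 2.65% and 3.21%. These had 941, 952 and 954 such windows. The windows of 10 to 19 positions of the highest 3 blocks were at 18.9% to 29.8% in the WT pool, and those of the lowest 3 at 3.49% to 4.22%.

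The block with the fewest listed positions, chr2:175000001-176000000 with 876, was at 7.78% (WT) and 5.14% (Tet1-null), on 1247 and 2041 reads. Only 204 of its windows held a listed position. The one with the most, chr9:17000001-18000000 with 4146, was at 4.86% and 4.89%. Across the 240 blocks the WT level went weakly with the number of listed positions (r = -0.397, rho = -0.234) and with the number of windows of 10 to 19 positions (r = 0.211, rho = 0.325). All points of these relations come from the same pool of libraries.

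The number of windows with a listed position separated the blocks further, in a split chosen after the data were seen. In 44 CpG-poor blocks fewer than 900 windows had one, and in 196 blocks 900 or more did. The former were not all sparse where covered. They include chr4:42000001-43000000, with 3777 positions in 426 windows, of which 121 had 10 to 19 positions. Windows of 1 to 9 positions were at 4.95% (WT) and 4.91% (Tet1-null) in the former and at 3.28% and 3.64% in the latter. The other ranked blocks had the same direction. Such windows were at 3.87% and 4.10% in the 39 of them with under 900 windows, and at 2.83% and 3.31% in the remaining 2113. The excess of the Tet1-null pool there was 0.235 and 0.477 points. In the CpG-poor blocks, windows of 10 to 19 positions were at 11.7% and 12.1% in the 44 blocks. They were close to that in the 196, at 11.4% and 12.5%. The Tet1-null pool was higher in 21 of the 44 blocks and in 160 of the 196. Over all 240 blocks it was higher in 181, with the counting interval above 0 in 96 and below 0 in 11. These counts were not made for the other ranked blocks, so they are not a trait of the CpG-poor blocks. In the other windows the Tet1-null pool was also higher, by 0.656 points against 0.483 points here.

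**Figure D4:**
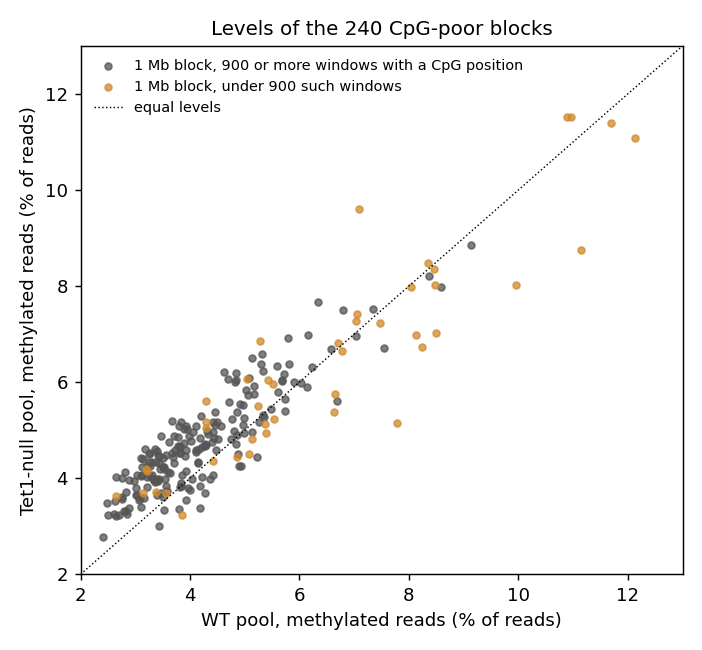
Level of each of the 240 CpG-poor blocks (% of reads methylated over its windows of 1 to 19 positions), WT pool on the x axis and Tet1-null pool on the y axis, with the line of equal levels dotted. Grey points are the 196 blocks with 900 or more windows that hold a listed position and orange points the 44 with fewer. Most grey points lie above the line, while the orange points reach the highest levels and lie on both sides of it.

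Single windows could be read only where depth allowed. When 5 positions seen in both pools and 20 reads per pool were required, 4212 windows of CpG-poor blocks (2.01%) were measurable, with medians of 25 WT and 31 Tet1-null reads. Of them, 2514 had 10 to 19 positions. In the WT pool 47.5% of these 2514 windows were under 5% and 3.78% were at 50% or more, against 79.8% and 0.284% of 240093 other windows of 10 to 19 positions. The higher mean level therefore came with a broad tail of partly methylated windows, while a large share stayed near 0.

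Windows at 50% or more numbered 98 for WT (2.33%) and 88 for Tet1-null (2.09%) among the 4212, against 0.609% and 0.588% of all windows measured, sex chromosome X included. Of those with 10 to 19 positions, 95 and 87 reached 50%, and 39 did so in both pools, which is 41.1% of the WT list and 44.8% of the Tet1-null list. In the other windows the shared ones made up 29.2% and 29.7% of the lists. Across the 2514 windows the levels of the pools had r = 0.678 and rho = 0.590.

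**Figure D5:**
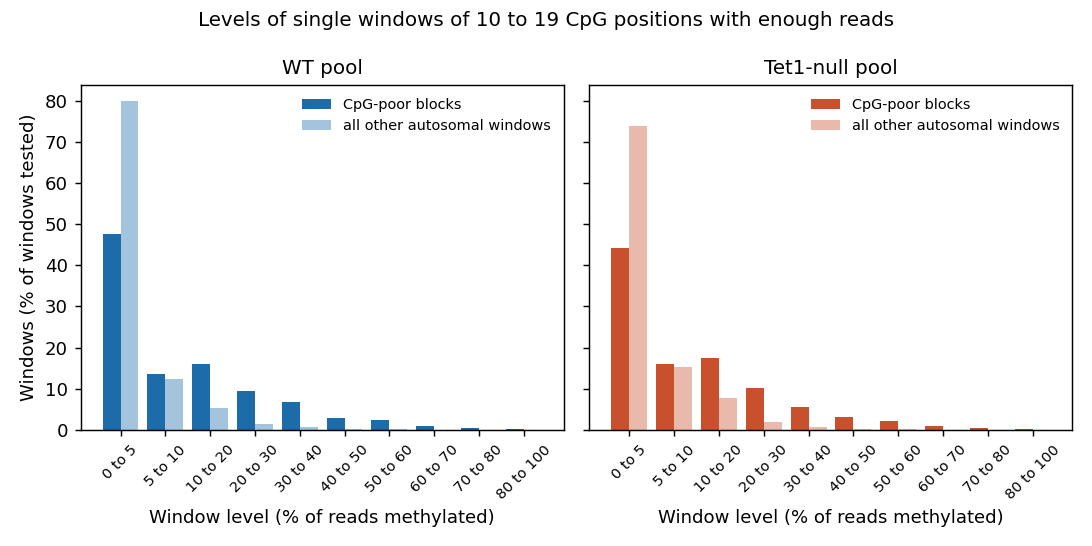
Share of measurable windows of 10 to 19 positions (% of windows) by their level (% of reads methylated), for CpG-poor blocks (dark bars, 2514 windows) and all other autosomal windows (light bars, 240093 windows), WT pool left and Tet1-null pool right. In CpG-poor blocks 47.5% (WT) and 44.2% (Tet1-null) of windows lie under 5%, against 79.8% and 73.8% elsewhere, and the remainder extends through each higher class.

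Single sites gave the same picture. Among sites with 5 or more reads in each pool in windows of 10 to 19 positions, 61.4% of 1774 sites in CpG-poor blocks lacked a methylated WT read and 54.2% a methylated Tet1-null read, against 87.1% and 83.4% of 73047 sites elsewhere. Sites at 50% or more made up 7.05% and 6.20%, against 0.882% and 1.08%. In windows of 1 to 9 positions the sets lay much closer. There 84.0% and 80.2% of 10740 sites had no methylated read, against 87.9% and 85.0% of 106277 sites elsewhere. Sites at 50% or more made up 0.745% and 0.615% of them, against 0.510% and 0.519% elsewhere. Of 12514 sites with 5 or more reads in each pool in all windows of CpG-poor blocks, 6 were methylated in each read of both pools. The same count was not made elsewhere, so it gives no result about the set. Among the 6, 2 lie side by side at positions 93546313 and 93546315 of chromosome 9, with 5 of 5 reads in each pool, in a window of 18 listed positions. The same reads may cover both, so they need not be separate cases. The site with the most reads among the 6, position 72001241 of chromosome 4, had 6 of 6 reads in each pool.

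The comparison of the pools window by window used Fisher's exact test (two-sided, Benjamini-Hochberg adjusted over 372073 autosomal and X windows), and called windows whose adjusted p was under 0.05 and whose levels lay 20 points or more apart. It compares pools of reads, not genotypes. Reads here and in the called windows below are summed over sites, so a read that covers several sites counts at each. The test took these counts as independent, so its p-values are likely too small. In CpG-poor blocks the test called 4 windows higher in the Tet1-null pool, where the share of all windows called higher was 0.097%, and 7 windows lower, where the share called lower was 0.0637%. At an unadjusted p under 0.05, 160 windows were higher (3.80% of those tested) and 168 lower (3.99%), against 2.57% and 1.91% of all windows tested. So few calls give no result about the set, and the called windows are described singly.

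The largest decrease was at chr6:104980001-104981000, a window of 15 positions with 21 of 28 WT reads and 3 of 35 Tet1-null reads methylated (Fisher's exact test, adjusted p = 0.000262). At chr1:114428001-114429000, also with 15 positions, 20 of 29 reads and 3 of 47 were methylated (Fisher's exact test, adjusted p = 7.29e-05). The other 3 with the largest decreases were chr2:99497001-99498000 with 16 of 23 and 2 of 24 reads, chr1:110883001-110884000 with 19 of 28 and 7 of 45, and chr4:50515001-50516000 with 12 of 21 and 2 of 34. All 5 were above 50% (WT) and under 16% (Tet1-null). Of these calls by Fisher's exact test, chr4:50515001-50516000 was lost with a minimum of 10 reads, which tests more windows (adjusted p = 0.0565), and both windows of chromosome 1 were lost after thinning to equal depth (adjusted p = 0.716 and 0.589).

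The 4 windows called higher had 12 to 18 positions. At chr4:78369001-78370000, 5 of 31 WT reads and 22 of 33 Tet1-null reads were methylated (Fisher's exact test, adjusted p = 0.0352). The window at chr15:15953001-15954000 had 0 of 32 and 20 of 52 methylated reads (Fisher's exact test, adjusted p = 0.0149). No WT read was methylated either at chr18:27656001-27657000, with 0 of 24 against 13 of 27, or at chr1:118530001-118531000, with 0 of 26 against 16 of 40. Thus 3 of the 4 had no methylated read in the WT pool. Counts of 0 at these depths allow levels of up to 9.38% on chromosome 15, 12.5% on chromosome 18 and 11.5% on chromosome 1. These limits take the counted reads as independent, and where sites share reads higher levels are allowed. With a minimum of 10 reads the Fisher's exact test no longer called the windows of chromosome 4 (adjusted p = 0.0648), chromosome 18 (0.0640) and chromosome 1 (0.0884). After thinning, Fisher's exact test no longer called those of chromosome 15 (adjusted p = 0.339) and chromosome 1 (0.760), so each of the 4 calls was lost under at least 1 of these settings. The windows of chromosomes 4 and 18 could not be tested after thinning.

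The 2 windows of 10 to 19 positions with the most reads, apart from the very deep ones, were not called. At chr1:85273001-85274000, 15 of 269 WT reads (5.58%) and 24 of 446 Tet1-null reads (5.38%) were methylated. At chr7:60936001-60937000, 42 of 114 (36.8%) and 134 of 374 (35.8%) were. These well-covered windows hold 16 and 18 listed positions. Their levels in the Tet1-null pool differed from the WT pool by -0.195 and -1.01 points, while the 2 windows themselves, of near-equal CpG number, stood far apart in both pools.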

How the data were processed

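Whole-genome bisulfite libraries of primordial germ cells, 4 WT and 5 Tet1-null, were analysed from 1 deposited table per genotype, in which the authors pooled the libraries. Per CpG site the deposited tables give the methylation level as a fraction and the count of reads. Their product came out as whole methylated reads for 100% of sites, with a tolerance of 0.0005 per read. The submitters' processing notes name build mm9 and bedtools. For the aligner and for duplicate reads the sources used here give nothing. The authors also deposited a filter that removes reads with a C outside CpG at more than 1.2% of their bases, and it can lower levels in both pools.

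Reads, methylated and total, were added up per window with Python 3.11.15, numpy 2.4.6, pandas 2.3.3, scipy 1.17.1 and numba 0.67.0, and figures were drawn with matplotlib 3.10.9. Starts were raised by 1 from the tables' BED coordinates. A listed position is one with a read in either table, so CpG numbers are undercounts. Levels have 95% Wilson intervals, differences of pools Newcombe intervals, and differences at equal CpG number binomial intervals with the CpG-poor windows' reads of both pools as weights. No test of genotype was made, because pooled tables hold no replicates. Windows with 5 or more positions covered in both pools and 20 or more reads in each were tested with Fisher's exact test, chosen because the tables hold read counts. The procedures were tested on simulated data with independent reads, which do not cover reads shared between sites or duplicate reads.

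Blocks named are those with the fewest and most positions and the 3 highest and 3 lowest in both pools together. Windows named are up to 5 called in each direction by size of difference, and the 2 of 10 to 19 positions with the most reads under 20 times the median depth. Sites named come from the 5 highest with 5 or more reads in each pool. The windows, classes and lists were chosen with earlier results of these data known. Surroundings by adjacency, distance and spacing, depth classes and windows at 50% or more were examined as descriptions. Genes, repeats, Tet1 itself and sequence were not analysed here, since no genome or annotation of mm9 was used, so the deletion of Tet1 was not checked.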

Additional observations from a re-analysis of the deposited data

How the results depend on the processing

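The excess of windows of CpG-poor blocks over other windows of equal CpG number kept its direction in both pools under each alternative run, as did the excess of the Tet1-null pool. The excess over other windows, 1.71 points (WT) and 1.64 points (Tet1-null), became 1.95 and 1.80 with the lowest 5% of blocks, 1.59 and 1.52 with the lowest 20%, 1.61 and 1.46 with sites listed in both pools, and 1.61 and 1.44 with 2 or more reads in both. Leaving out windows over 20 times the median depth gave 1.64 and 1.60. It was 1.61 and 1.58 without the deepest 1% of sites, 1.79 and 1.77 as a mean of site levels, and 1.63 and 1.48 with reads thinned to equal depth. Matching on flanking positions gave 1.23 and 1.10, windows of 500 bp with 1 to 9 positions 1.27 and 1.15, blocks of 2 Mb 1.77 and 1.69, and ranking by positions per window that holds one 1.45 and 1.41. Of the alternatives added after seeing the data, leaving out blocks with under 900 windows that hold a position gave 1.42 and 1.41, and leaving out windows over 2 times the median depth 1.61 and 1.59. For 10 to 19 positions, a result examined under these alternatives only after the data were seen, the excess ranged from 5.67 to 8.98 points (WT) and from 5.24 to 9.54 points (Tet1-null) over 15 alternatives, which did not include windows of 500 bp. Subtracting the mitochondrial level is among the alternatives but cannot change the excess over other windows, since it takes the same amount off both sets.

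The excess of the Tet1-null pool, 0.483 points, was 0.416 with the lowest 5% of blocks, 0.366 with sites listed in both pools, 0.429 with 2 or more reads in both, 0.531 as a mean of site levels, 0.290 after thinning, 0.854 with the mitochondrial level subtracted, 0.354 with windows of 500 bp, and 0.534 without blocks of under 900 windows. The contrast of this excess with other windows, -0.0743 points, was -0.153, -0.149, -0.165, -0.0241, -0.150, -0.129 and -0.0125 in the same order without the mitochondrial setting, -0.126 with flanks matched, -0.0269 without the deepest 1% of sites, and -0.0270 with windows over 2 times the median depth left out. Its interval reached above 0 in the last 2, as a mean of site levels, without blocks of under 900 windows, with windows over 20 times the median depth left out (-0.0395) and with ranking by positions per window (-0.0345). The causes were not tested. Calls by Fisher's exact test, 4 higher and 7 lower, were among 4212 windows, where 0.097% and 0.0637% of all windows tested were called. With a minimum of 10 reads they numbered 8 and 11 among 20609 windows (0.0316% and 0.0291% of all windows). With 30 reads they numbered 2 and 2 among 986 (0.277% and 0.151%). Calls were 2 and 3 among 2141 with the lowest 5% of blocks and 11 and 11 among 10099 with the lowest 20%, the share of all windows being unchanged. After thinning they were 0 and 1 among 1833 (0.0483% and 0.0167%). Among the 9 named windows, 4 calls were lost with a minimum of 10 reads. After thinning, 4 were lost, only that of chr6:104980001-104981000 was kept, and the rest did not reach the depth for the test.

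No paired analysis was possible because the libraries of each genotype are pooled in 1 table, and for the same reason no library was left out. With a mean of 2.26 (WT) and 2.87 (Tet1-null) reads per listed site, 2.01% of the windows reached the depth for a test of their own.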
